A study of Mus musculus with 31 samples.

Results

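Kcnq1ot1, Cdkn1c, Phlda2, Slc22a18 and Ascl2 are neighbouring imprinted genes of mouse chromosome 7, and they were followed here through an allele-specific RNA sequencing series. They were picked by symbol, and they are 5 of the 17484 genes listed in the 5 deposited tables. All 5 were listed in embryonic stem cells (ESC), at day 12 (d12) and at day 21 (d21) of differentiation, while 4 were listed in embryos at E13.5, where Ascl2 was missing, and 4 in newborns at P0, where Phlda2 was missing. Every library analysed here came from a first-generation hybrid of the strains C57BL/6 (B6) and JF1. The series also holds 6 libraries labelled E14, at d12 and d21, which were not analysed. BJ1 hybrids had a B6 mother and a JF1 father and JB6 hybrids the reverse, so that an effect of the parent can be separated from an effect of the strain. The ESC lines were derived from blastocysts of both crosses, their B6 parent carried an Oct4-GFP transgene, and they were kept in serum-free medium with a GSK3β inhibitor, LIF and BMP4. Differentiation toward cortex used a defined medium with the Hedgehog pathway inhibitor cyclopamine in an early window, and cultures were stopped at day 12 or day 21. The in vivo tissue was labelled DT at E13.5 and Ctx at P0. There were 4 libraries each of ESC, d12 and d21 (2 per cross), 6 of E13.5 (3 per cross) and 7 of P0 (4 BJ1 and 3 JB6). All 12 in vitro libraries were labelled male, as were 2 of the 13 in vivo libraries, and the labels do not say how many ESC lines stood behind each cross, so line and cross cannot be told apart in vitro. The labels also do not say whether replicates were separate cultures or animals, so p-values measure the spread between these libraries, which may be technical.

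The genes belong to one imprinted domain. Kcnq1ot1 is a long noncoding RNA that starts within an intron of the potassium channel gene Kcnq1, in a stretch of DNA that is methylated on the maternal chromosome. It is transcribed from the unmethylated paternal chromosome, and its transcription silences nearby genes on that same chromosome, which leaves them expressed from the maternal copy. Cdkn1c encodes p57, a cyclin-dependent kinase inhibitor that helps dividing progenitors, those of the cortex included, to leave the cell cycle. Phlda2 encodes a small pleckstrin homology protein that restrains placental growth, Slc22a18 encodes a membrane protein of the organic cation transporter family, and Ascl2 encodes a basic helix-loop-helix factor needed for the trophoblast of the placenta. In the GENCODE M21 annotation (GRCm38) the order along chromosome 7 is Ascl2, Kcnq1, Kcnq1ot1, Cdkn1c, Slc22a18 and Phlda2. Kcnq1ot1 lies within Kcnq1 on the opposite strand and overlaps 1 of its exons.

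The promoter of Kcnq1ot1 is shown because it is the start of the only paternally expressed member. RefSeq gave promoter windows, from 250 bases before to 50 after the start, for 4 of the 5 members (build GRCm38.p6); Cdkn1c was not among them. The Kcnq1ot1 window is chr7:143296498-143296797 on the minus strand, printed from 5′ to 3′ with the motif CCAAT in capitals.

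Kcnq1ot1 promoter: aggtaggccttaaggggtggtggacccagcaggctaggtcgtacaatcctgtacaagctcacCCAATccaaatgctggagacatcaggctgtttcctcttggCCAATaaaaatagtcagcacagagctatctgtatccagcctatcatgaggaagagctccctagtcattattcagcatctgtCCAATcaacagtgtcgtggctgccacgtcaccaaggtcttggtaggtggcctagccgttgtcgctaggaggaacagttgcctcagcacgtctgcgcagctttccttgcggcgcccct

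CCAAT is the core of the site that the factor NF-Y recognises. The Kcnq1ot1 window held 3 copies, whose first bases lay at -188, -148 and -67 relative to the start, all on the printed strand. Of 32851 RefSeq promoter windows of this length, 3.37% held at least 3 copies when both strands were counted. The Ascl2 window also held 3, the Phlda2 window 1 and the Slc22a18 window 0. In CG dinucleotides, the usual sites of DNA methylation, the Phlda2 window held 26, the Ascl2 window 23, the Kcnq1ot1 window 9 and the Slc22a18 window 2, and the median over all windows was 7. A match of letters is a description of these windows and not a binding site.

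Values are counts of read bases, that is, sequenced bases at a gene's strain differences, each assigned to one parent. Levels are counts per 1000000 read bases of the library (CPM) and are not divided by gene length, so they are compared between libraries and not between genes. Depth was 5192382 to 8618253 read bases per library (mean 6323163, n = 25), so that 1 read base was worth 0.116 to 0.193 CPM and a count of 0 allows up to 0.348 to 0.578 CPM. In the 12 male in vitro libraries, which have no paternal X chromosome, 1.13% to 4.85% of X-linked read bases were nonetheless assigned to the father, taken here as a measure of misassigned alleles. The labelled tissue was checked with marker genes. Of 10 genes of the dorsal telencephalon and cortical neurons, 9 were listed (Emx2 was not), and their summed level was 707 to 1020 CPM at E13.5 and 537 to 833 at P0, but 14.2 to 24.1 at d12 and 17.9 to 29.6 at d21. Markers of other cell types were present in the cultures. Genes of vascular, meningeal and blood cells summed to 451 to 592 CPM at d12 and 2037 to 2856 at d21, against 427 to 1937 at E13.5 and 263 to 386 at P0, with 12 of 14 listed and Cdh5 and Rgs5 not listed or at 0. Within this list the blood gene Hbb-b1 was at 0 at d12, and Hbb-b1 and Hba-a1 were at 0 at d21. All 12 listed genes averaged at least 1 CPM at E13.5 and at P0, against 9 at d12 and 9 at d21. Trophoblast genes summed to 259 to 480 at d12 and 712 to 1027 at d21, against 245 to 356 at E13.5 and 13.7 to 31 at P0 (9 of 10 listed, Hand1 at 0 or not listed). Of these, 8 averaged at least 1 CPM at d12 and 7 at d21, but only 2 at E13.5 and 2 at P0. Eomes stood in both the trophoblast and the cortical list, so the trophoblast sum at E13.5 cannot be read as trophoblast alone. Genes of endoderm, mesoderm and muscle summed to 273 to 1609 at d12 and 416 to 653 at d21, against 2.36 to 25.3 and 4.86 to 10.9 in vivo (9 of 10 listed, Myh6 at 0 or not listed).

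One library stood apart from its group. JB6 replicate 2 of the ESC was below the range of the other 3 ESC libraries in 6 of 7 listed stem cell genes. It was above that range in 6 of 9 genes of endoderm, mesoderm and muscle, 5 of 9 trophoblast genes and 6 of 12 vascular, meningeal and blood genes. Its Krt7 level was 49.7 CPM against at most 0.460 in the other 3, and its Acta2 level 134 against at most 3.63. Of the 5 imprinted genes, Cdkn1c, Kcnq1ot1 and Ascl2 were above the range of the other 3 libraries and Phlda2 and Slc22a18 within it. Results that rest on this library are given with and without it.

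**Figure D1:**
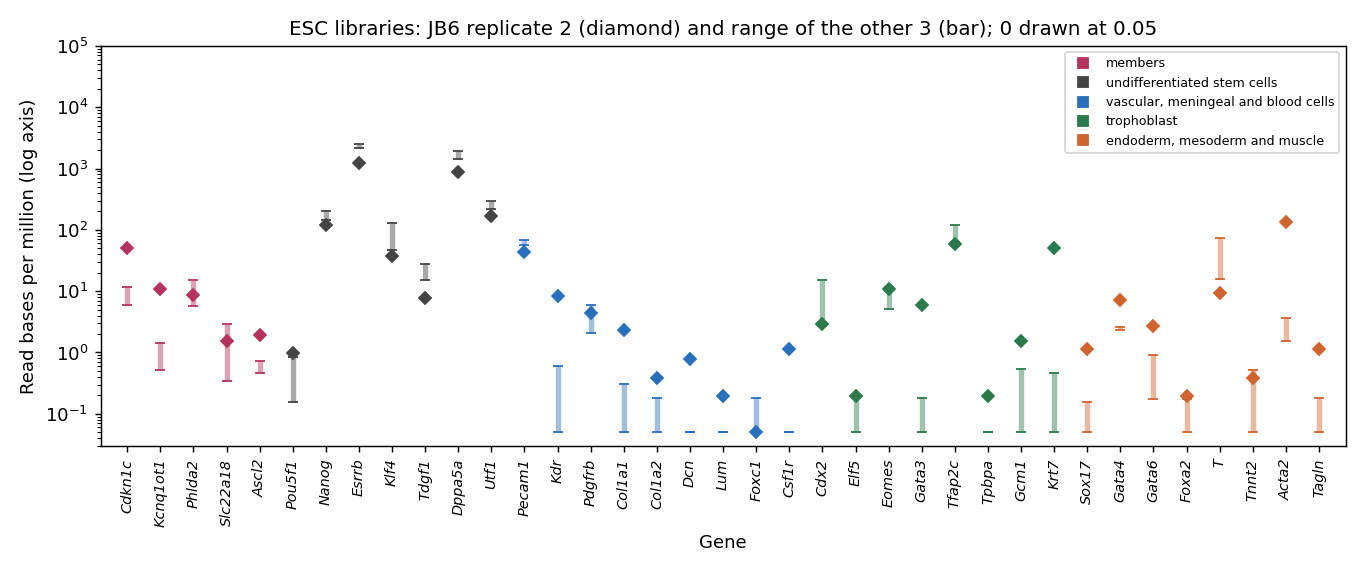
Level in CPM (log axis, a value of 0 drawn at 0.05) of the 5 imprinted genes and of marker genes in the 4 ESC libraries, with JB6 replicate 2 as a diamond and the range of the other 3 as a bar. The diamonds of Cdkn1c at 50.7 and Kcnq1ot1 at 10.8 lie above their bars, and those of 6 stem cell genes lie below.

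All 13 pairs of gene and stage that were deep enough for the test of parental bias (on average 20 read bases or more in a library) passed it at an adjusted p under 0.05. They were 2 of 2 genes tested in ESC, 4 of 4 at d12, 3 of 3 at d21, 2 of 2 at E13.5 and 2 of 2 at P0. The share of all autosomal genes tested that passed was 1.4% in ESC, 1.78% at d12, 1.38% at d21, 0.49% at E13.5 and 0.548% at P0. Cdkn1c was maternal at all 5 stages, Phlda2 in ESC and at d12, and Slc22a18 at d12 and d21, while Kcnq1ot1 was paternal at d12, d21, E13.5 and P0. The other pairs had too few read bases: Kcnq1ot1 and Slc22a18 in ESC, Phlda2 at d21 and E13.5, Slc22a18 at E13.5 and P0, and Ascl2 throughout.

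Kcnq1ot1, the silencing RNA, was read almost wholly from the father. At d12 the 4 libraries held 25 and 44 (BJ1) and 31 and 43 (JB6) paternal read bases and no maternal one, so 0 of 143, for which the 95% Wilson interval reaches 2.62%. Against a floor of 3 read bases over the stage, the paternal allele was at least 47.7-fold higher. Both crosses gave the same side, with either strain as the father. The call at d12 holds in edgeR's quasi-likelihood test (adjusted p = 4.04e-27) and was lost in DESeq2 (adjusted p = 0.646). At d21 the paternal read bases were 52 and 39 in BJ1 and 50 and 20 in JB6, and the maternal ones 1, 3, 0 and 0, a maternal share of 2.26% ± 3.38 (SD, n = 4; adjusted p = 3.36e-11). The 4 maternal read bases at this stage all lay in the BJ1 libraries.

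In the in vivo tissue the same RNA had 647 paternal and 2 maternal read bases over the 6 E13.5 libraries, and 631 paternal and 3 maternal over the 7 P0 libraries. The ratio of paternal to maternal was 324 at E13.5 (95% exact interval from counting error 89.2 to 2677) and 210 at P0 (71.6 to 1023). The bias tested in edgeR, as log2 of maternal over paternal, was -7.87 ± 0.30 (SE) at E13.5 (adjusted p = 1.14e-30) and -7.95 ± 0.32 at P0 (adjusted p = 3.21e-21). With 2 and 3 maternal read bases, these SE, derived from the test statistic, are narrower than the intervals from counting error. In ESC the counts were too low for the test. The paternal read bases were 8 and 5 in BJ1, 2 in JB6 replicate 1 and 53 in JB6 replicate 2, and the maternal ones 0, 0, 1 and 3. The pooled maternal share was 5.56% of 72 read bases (95% Wilson interval 2.18% to 13.4%), and without JB6 replicate 2 it was 6.25% of 16 (1.11% to 28.3%).

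**Figure D2:**
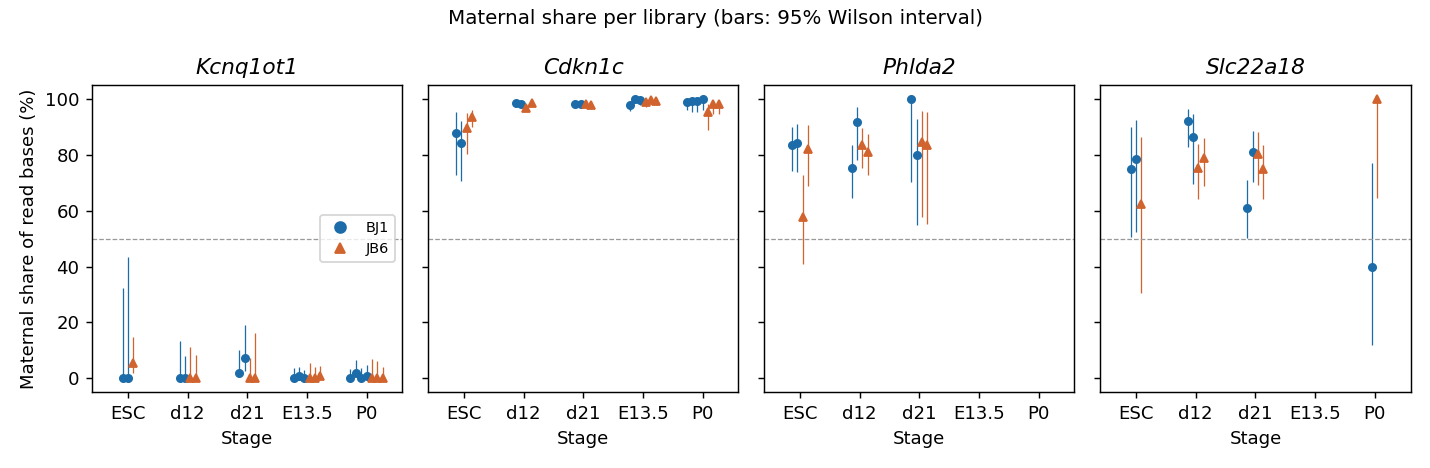
Maternal share of read bases (%) in each library with at least 5 read bases of the gene, by stage, with circles for BJ1 and triangles for JB6 and bars for the 95% Wilson interval. Kcnq1ot1 lies at or under 7.14% and Cdkn1c at or over 84.1%, while Phlda2 lies between 57.6% and 100% and Slc22a18 between 40% and 100%.

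The level of Kcnq1ot1 was lower in the differentiated cultures than in the cortex. Both alleles together gave 4.75 and 8.15 (BJ1) and 4.79 and 4.99 (JB6) CPM at d12, and 7.45, 5.64, 8.46 and 3.22 at d21 in the same order. At E13.5 the 6 libraries ranged from 11.7 to 20.8 CPM (mean 16.9 ± 3.17 SD), and the 7 P0 libraries from 8.15 to 20.9 (mean 14.5 ± 5.09 SD). The d12 and E13.5 libraries did not overlap, and the highest d21 library (8.46) lay above the lowest P0 library (8.15). On the log2 scale, with counts scaled by edgeR's TMM factors, d12 was below E13.5 by -1.47 ± 0.45 (SE; adjusted p = 0.00432) and d21 below P0 by -1.16 ± 0.43 (adjusted p = 0.0169). The second call was lost without d21 JB6 replicate 2 (-1.0, adjusted p = 0.0558). Between E13.5 and P0 the change was -0.24 ± 0.35 (adjusted p = 0.546), and between d12 and d21 0.07 ± 0.49 (adjusted p = 0.919). The cell type markers given above differed between culture and cortex as well, and in bulk RNA fewer cells of a type and less RNA per cell cannot be told apart. Their part in this difference was not tested.

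From ESC to d12 the result for Kcnq1ot1 rested on 1 library. The ESC levels were 1.45 and 0.766 CPM in BJ1 and 0.516 and 10.8 in JB6, so that JB6 replicate 2 alone lay above every d12 library. With all 4, d12 exceeded ESC by 0.46 ± 0.54 on the log2 scale (adjusted p = 0.445). Without that library the ESC mean was 0.911 ± 0.485 CPM (SD, n = 3), and d12 exceeded ESC by 2.42 ± 0.36 (adjusted p = 1.48e-06).

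Cdkn1c, the cell cycle inhibitor, was read almost wholly from the mother after differentiation and in the cortex, and less completely in ESC. Its read bases came from 2 strain differences (1 in JB6 replicate 1 of P0). In ESC the maternal and paternal read bases were 29 and 4, 37 and 7 in BJ1, and 61 and 7, 246 and 17 in JB6. These are maternal shares of 87.9% and 84.1% in BJ1 and 89.7% and 93.5% in JB6, with a mean of 88.8% ± 3.93 (SD, n = 4). At d12 the shares were 98.7% and 98.3% in BJ1 and 96.8% and 98.4% in JB6, and at d21 98.3%, 98.3%, 98.2% and 97.9%. The 4 ESC libraries lay below all of the d12 and d21 libraries. The 6 E13.5 libraries ranged from 97.9% to 100% around a median of 99.3%, and the 7 P0 libraries from 95.4% to 100% around a median of 98.9%.

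The maternal excess of Cdkn1c passed at every stage. On the log2 scale of maternal over paternal it was 3.10 ± 0.24 (SE) in ESC (adjusted p = 2.18e-09), 5.75 ± 0.06 at d21 (9.36e-42), 6.86 ± 0.17 at E13.5 (3.12e-37) and 6.04 ± 0.20 at P0 (2.58e-25). At d12 it was 5.66 ± 0.07, with a p too small for the software to write. The difference of this bias between stages passed for 1 of the 2 genes tested from ESC to d12, against 0.341% of all genes tested. That gene was Cdkn1c, whose bias was larger at d12 by 2.55 ± 0.45 (adjusted p = 0.00086). The call was lost in DESeq2 (2.66, adjusted p = 0.0791), in limma on log2 ratios (2.75, adjusted p = 0.0663), without ESC BJ1 replicate 2 (2.42, adjusted p = 0.225) and after division of all counts by 3 (2.45, adjusted p = 0.234). It held without ESC JB6 replicate 2. For Phlda2 the same difference was 0.32 ± 0.44 (adjusted p = 0.941).

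In the other 4 contrasts between stages a difference could be given for 5 gene and contrast pairs, 4 of Cdkn1c and 1 of Slc22a18, and 0 of the 5 passed by edgeR, DESeq2 or limma. The shares of all genes called were 0.0495% for d21 against d12, 0.136% for P0 against E13.5, 0.912% for d12 against E13.5 and 0.909% for d21 against P0. At an unadjusted p under 0.05 there were 2. One was Cdkn1c at d12 against E13.5, with a bias lower by -1.19 ± 0.38 (adjusted p = 0.189), which passed without d12 JB6 replicate 2 (-1.38, adjusted p = 0.0235) or E13.5 BJ1 replicate 1 (-2.23, adjusted p = 0.0128). The other was Slc22a18 at d21 against d12 (-0.93 ± 0.45, adjusted p = 0.869). No such difference is given for Kcnq1ot1, since its maternal allele had fewer than 5 read bases at each stage.

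The paternal read bases of Cdkn1c can be set beside the misassigned X-linked ones of the same male libraries. In ESC the paternal share of Cdkn1c was 6.46% to 15.9% and that of X-linked read bases 1.53% to 4.85%, and Cdkn1c was the higher in 4 of 4 libraries. At d12 it was 1.34% to 3.18% against 1.93% to 3.43%, higher in 0 of 4, and at d21 1.66% to 2.11% against 1.13% to 2.79%, higher in 2 of 4. The X-linked share at d21 was 1.13% and 1.31% in BJ1 and 2.55% and 2.79% in JB6, and the d21 libraries in which Cdkn1c was higher were those of BJ1. At d12 and d21 the paternal share of Cdkn1c was no higher than the highest X-linked share of its stage, which came from JB6. In ESC its lowest value lay above the highest X-linked share. The paternal level was 1.57 ± 1.15 CPM in ESC, 8.34 ± 4.70 at d12 and 7.44 ± 0.867 at d21 (SD, n = 4 each), while the maternal level was 17.2 ± 20.3, 408 ± 85.4 and 405 ± 72.3. Without JB6 replicate 2 the ESC means were 1.00 ± 0.246 CPM for the paternal and 7.14 ± 2.90 for the maternal allele (SD, n = 3).

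**Figure D3:**
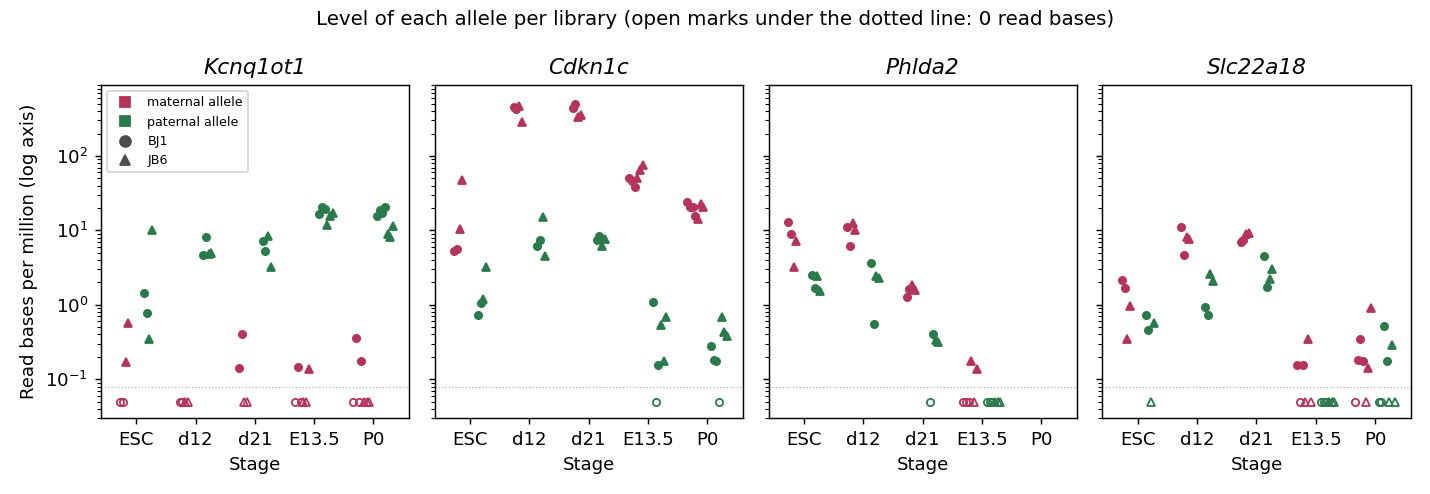
Level of the maternal (red) and paternal (green) allele in CPM (log axis) in each library, with circles for BJ1, triangles for JB6 and open marks under the dotted line for 0 read bases. Maternal Cdkn1c lies between 282 and 492 CPM at d12 and d21 and below 77 at E13.5 and P0, while paternal Kcnq1ot1 lies above 8 CPM in all E13.5 and P0 libraries.

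Cdkn1c had its highest levels in the cultures. In ESC the level of both alleles was 5.99 and 6.74 CPM in BJ1 and 11.7 and 50.7 in JB6. At d12 it was 467 and 435 in BJ1 and 477 and 287 in JB6, and at d21 443, 501, 341 and 365. The E13.5 libraries ranged from 38.7 to 76.8 CPM (median 52.0) and the P0 libraries from 15.1 to 24.7 (median 21.0). The ranges of ESC, E13.5 and P0 each stayed below those of d12 and d21. From ESC to d12 the gene rose by 4.28 ± 0.43 on the log2 scale (adjusted p = 4.37e-09), and by 5.34 ± 0.29 without ESC JB6 replicate 2 (adjusted p = 2.37e-14). The change from d12 to d21 was -0.05 ± 0.36 (adjusted p = 0.915). From E13.5 to P0 the gene fell by 1.37 on the log2 scale (SE 0.31, adjusted p = 0.000345). The level at d12 was above that at E13.5 by 3.07 ± 0.34 (adjusted p = 2.16e-08), and the level at d21 above that at P0 by 4.39 ± 0.34 (adjusted p = 3.55e-11). The vascular, meningeal and blood sum, the trophoblast sum and the endoderm, mesoderm and muscle sum were also higher at d21 than at P0. The values are given above, and Hbb-b1 and Hba-a1 were at 0 at d21. At d12 against E13.5 only the endoderm, mesoderm and muscle sum was higher in every culture library. There the other ranges overlapped, and the median vascular, meningeal and blood sum was lower in culture (551.5 against 1493 CPM). The part of these cell types in the differences of Cdkn1c was not tested.

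Phlda2, the restrainer of placental growth, was mostly maternal in ESC and at d12, but with a clear paternal part. Its read bases came from a single strain difference. In ESC the maternal and paternal read bases were 71 and 14, 58 and 11 in BJ1, and 19 and 14, 37 and 8 in JB6. The maternal shares were 83.5%, 84.1%, 57.6% and 82.2%, with JB6 replicate 1 the lowest. At d12 they were 75.3% and 91.7% in BJ1 and 83.7% and 81.1% in JB6. The log2 bias was 1.84 ± 0.27 in ESC (adjusted p = 0.000101) and 2.16 ± 0.24 at d12 (adjusted p = 1.27e-16). Both calls were lost in limma on log2 ratios, which weights all libraries alike (1.8, adjusted p = 0.357, and 2.31, adjusted p = 0.17). At d21 there were 49 read bases, 85.7% of them maternal (95% Wilson interval 73.3% to 92.9%). The paternal share of Phlda2 was above the X-linked one of the same library in 4 of 4 ESC, 4 of 4 d12 and 3 of 4 d21 libraries, and it was 0 in the remaining d21 library.

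Its level was 15.4 and 10.6 CPM in BJ1 and 5.67 and 8.67 in JB6 ESC. At d12 it was 14.6, 6.67, 15.2 and 12.3, and at d21 1.27, 2.01, 2.20 and 1.93. The d21 libraries lay below all d12 libraries, a fall by 2.78 on the log2 scale (SE 0.38, adjusted p = 4.42e-06). Between ESC and d12 the change was -0.01 ± 0.33 (adjusted p = 0.973), and its sign turned under other scalings. At E13.5 only 2 read bases were counted in 6 libraries, both maternal and both in JB6. The level at d12 was 234 times that at E13.5 by pooled counts (95% exact interval from counting error 64.2 to 1938). The change tested in edgeR was 7.49 ± 0.52 on the log2 scale (adjusted p = 7.06e-11), and the gene entered that test through its d12 counts.

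Slc22a18, the transporter gene, was likewise mostly maternal. At d12 the maternal and paternal read bases were 58 and 5, 25 and 4 in BJ1, and 52 and 17, 67 and 18 in JB6. These are maternal shares of 92.1%, 86.2%, 75.4% and 78.8%, both BJ1 libraries above both JB6 libraries. At d21 the shares were 61.0%, 81.2%, 80.3% and 75.0%, and BJ1 replicate 1 was the lowest. The log2 bias was 2.45 ± 0.29 at d12 (adjusted p = 6.10e-15) and 1.52 ± 0.24 at d21 (adjusted p = 1.83e-05), and the second call was lost in limma on log2 ratios (1.56, adjusted p = 0.341). In ESC 75.0% of 40 read bases were maternal (95% Wilson interval 59.8% to 85.8%). At P0 it was 66.7% of 18 (43.8% to 83.7%), an interval that includes equal shares, and at E13.5 all 4 read bases were maternal. Its paternal share was above the X-linked one in 3 of 4 ESC libraries, in the remaining one of which it was 0, and in 4 of 4 libraries at d12 and 4 of 4 at d21.

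The level of Slc22a18 was 2.91 and 2.14 CPM in BJ1 and 0.344 and 1.54 in JB6 ESC, and all 4 lay below the d12 libraries, which had 12.0, 5.37, 10.7 and 9.86. The rise was 2.15 ± 0.48 on the log2 scale (adjusted p = 0.000247). At d21 the levels were 11.5, 9.26, 11.2 and 12.2 CPM, a change of 0.16 ± 0.41 from d12 (adjusted p = 0.758). In the in vivo tissue the gene was near the detection floor, at 0 to 0.353 CPM at E13.5 and 0 to 0.896 at P0. By pooled counts the d12 level was 90.7 times the E13.5 level (95% exact interval from counting error 35.0 to 335) and the d21 level 27.2 times the P0 level (16.9 to 46.6). The changes tested in edgeR were 6.35 ± 0.60 (adjusted p = 5.63e-10) and 4.75 ± 0.47 (adjusted p = 8.21e-10) on the log2 scale. The gene entered both tests through its counts in culture.

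Ascl2, the trophoblast factor, had too few read bases for any test. It had 21 in ESC, 31 at d12 and 23 at d21 over 4 libraries each, and 1 at P0 over 7 libraries. The pooled maternal share was 57.1% in ESC (95% Wilson interval 36.6% to 75.5%), 48.4% at d12 (32.0% to 65.2%) and 60.9% at d21 (40.8% to 77.8%). All 3 intervals include equal shares. At d12 the interval lay below those of Phlda2 (77.1% to 85.6%) and Slc22a18 (76.8% to 86.4%). In ESC and at d21 it overlapped those of Phlda2 (74.1% to 84.4% and 73.3% to 92.9%). It also overlapped those of Slc22a18 at these stages (59.8% to 85.8% and 68.4% to 78.4%). A smaller bias of Ascl2 was not detectable at this depth. The level was 0.460 to 1.93 CPM in ESC, with JB6 replicate 2 the highest, 0.696 to 1.86 at d12 and 0.562 to 1.21 at d21, and the 3 stages overlapped.

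Of the 17 pairs of gene and contrast tested for expression, 11 passed. They were 2 of 4 for d12 against ESC, where 77.5% of all genes tested passed, and 1 of 4 for d21 against d12, where 52.2% did. For P0 against E13.5 it was 1 of 2 against 75.8%, for d12 against E13.5 4 of 4 against 79.6%, and for d21 against P0 3 of 3 against 80.9%. With 2 to 4 genes tested per contrast, these shares are too coarse to be set above or below the background. Phlda2 and Slc22a18 at d12 against E13.5, and Slc22a18 at d21 against P0, entered the test through their counts in culture. Their passes were thus nearly fixed by the filter and carry no weight in these counts. Cdkn1c and Kcnq1ot1 averaged 20 read bases or more at both stages of the matched contrasts. There the maternally expressed Cdkn1c was higher in culture than in cortex, and the paternally expressed Kcnq1ot1 lower. The contrasts d12 against ESC, d21 against d12 and d12 against E13.5 share the d12 libraries.

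**Figure D4:**
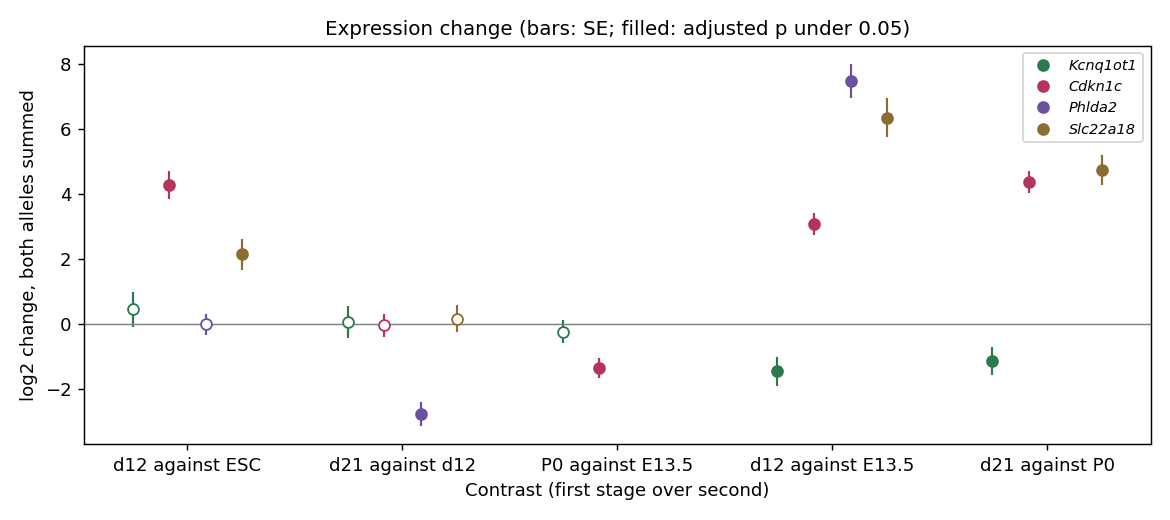
Change in level between stages, on the log2 scale with both alleles summed (first stage over second), with bars for the SE and filled marks for an adjusted p under 0.05. Kcnq1ot1 is below 0 at -1.47 and -1.16 in the comparisons of culture with cortex, where Cdkn1c stands at 3.07 and 4.39.

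The neighbouring genes were tested in the same fit. Of 20 genes listed by position around the 5, 18 were listed in the tables. Of those tested for parental bias, 0 of 7 passed in ESC, 0 of 11 at d12, 0 of 14 at d21, 0 of 9 at E13.5 and 1 of 9 at P0 by edgeR. At an unadjusted p under 0.05 there were 1, 2, 3, 4 and 3 in the same order, where 7.67%, 7.77%, 6.67%, 5.93% and 6.58% of all genes reached it. The median log2 bias of the neighbours tested was 0.022, 0.108, 0.059, 0.165 and 0.016 in that order. Over all genes tested it was 0.008, 0.006, 0.011, 0.003 and 0. Among the neighbours under that unadjusted threshold was Tnfrsf22, a decoy receptor gene, toward the mother in ESC (0.52 ± 0.15 on the log2 scale, adjusted p = 0.1) and at E13.5 (0.76 ± 0.21, adjusted p = 0.117) and toward the father at P0 (-0.48 ± 0.21, adjusted p = 0.661). Nap1l4 and Cars are the next measured genes beyond Phlda2. With the crosses weighted equally, the maternal share of Nap1l4, a nucleosome assembly protein, was 49.4% to 54.1% over the 5 stages and that of Cars, the cysteinyl-tRNA synthetase, 47.4% to 51.6%. Tssc4, which lies between Ascl2 and Kcnq1, had 49.4% to 53.2%, and Mrpl23, which encodes a mitochondrial ribosomal protein and lies beyond Ascl2, had 47.1% to 54.1%. Over the 12 neighbours other than Kcnq1 with at least 100 read bases in each cross, the 46 values by gene and stage ran from 41.6% to 61.2% around a median of 51.4%.

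The neighbour that passed was Mrgpre, a receptor of the Mas-related family. At P0 its maternal share was 70.7% to 77.4% in BJ1 and 34.9% to 45.8% in JB6, so the B6 allele led in both crosses. The parental term was 0.44 ± 0.09 on the log2 scale (adjusted p = 0.00638), beside a strain term of 1.04 ± 0.09 toward B6. The parental call was lost in DESeq2 (0.42, adjusted p = 0.351), in limma (0.41, adjusted p = 0.451), without P0 JB6 replicate 3 (0.31, adjusted p = 0.394) and after division of all counts by 3 (0.46, adjusted p = 0.0808).

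Kcnq1 itself, the host of Kcnq1ot1, had too few sense read bases for the test, and most of them were maternal. They were 15 maternal and 1 paternal at d12, 45 and 13 at d21, 11 and 3 at E13.5, and 28 and 10 at P0. The pooled maternal share was 77.6% at d21 (95% Wilson interval 65.3% to 86.4%) and 73.7% at P0 (58.0% to 85.0%). At d21 it was 80.6% in BJ1 and 72.7% in JB6, above equal shares in both crosses. Libraries were stranded, and the counts are of the sense strand, so that Kcnq1 and the antisense Kcnq1ot1 were counted apart.

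**Figure D5:**
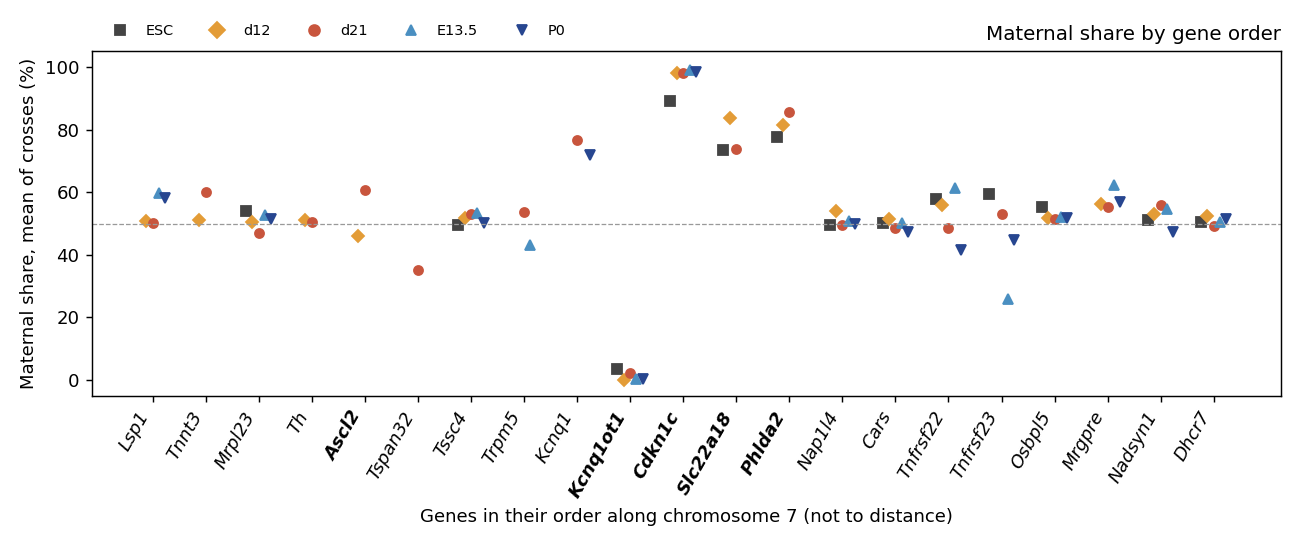
Maternal share of read bases (%, mean of the pooled shares of BJ1 and JB6) by stage for genes in their order along chromosome 7, the 5 imprinted genes in bold, where each cross had at least 10 read bases. Cdkn1c, Slc22a18, Phlda2 and Kcnq1 lie above 70%, Kcnq1ot1 lies below 4%, and Nap1l4 and Cars lie between 47.4% and 54.1%.

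The same fit had a term for the strain of the allele. The strain term could be given for 9 gene and stage pairs, not for Kcnq1ot1, which had fewer than 5 maternal read bases at each stage. It passed for 1 of the 9, Cdkn1c at d12, where the B6 allele was favoured by 0.35 ± 0.10 on the log2 scale (adjusted p = 0.00252). Among all genes tested at that stage 35.9% passed. The call was lost in DESeq2 (0.26, adjusted p = 0.670), in limma (0.29, adjusted p = 0.388) and after division of all counts by 3 (0.37, adjusted p = 0.126). It was also lost when leaving out BJ1 replicate 1 (0.27) or JB6 replicate 1 (0.03) of that stage. The X-linked share assigned to the father at d12 was 1.99% and 1.93% in BJ1 and 3.31% and 3.43% in JB6, where the father is B6. The part of misassigned alleles in this strain term was not tested. None passed in the other stages by edgeR, where the background was 44.6% in ESC, 34.4% at d21, 45.9% at E13.5 and 48.2% at P0. At an unadjusted p under 0.05 there were 2 more, Slc22a18 at d12 (0.70 ± 0.32, adjusted p = 0.0704) and Cdkn1c at P0 (0.77 ± 0.37, adjusted p = 0.0864), and the latter passed in limma (0.73, adjusted p = 0.0392). By contrast, Nap1l4 favoured the B6 allele at all 5 stages, by 0.56 to 1.02.

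The summed level of both alleles differed between the crosses for 1 of the 13 pairs, Cdkn1c in ESC. There BJ1 was below JB6 by -2.21 ± 0.42 on the log2 scale (adjusted p = 0.00813), and 1.86% of all genes tested passed, which are 173 genes. The call was lost without JB6 replicate 2 (-0.97, adjusted p = 0.0607), without BJ1 replicate 1 (-2.19, adjusted p = 0.075) and without BJ1 replicate 2 (-2.36, adjusted p = 0.0761). The count over all genes was 2187 without JB6 replicate 2, 532 without JB6 replicate 1, and 62 and 55 without BJ1 replicate 1 and 2. Kcnq1ot1 at P0 was 15.6, 19.4, 17.2 and 20.9 CPM in BJ1 and 8.84, 8.15 and 11.5 in JB6, without overlap. That difference of 0.90 ± 0.39 on the log2 scale had an unadjusted p of 0.0311 and an adjusted p of 0.539, and 0.0185% of all genes passed at that stage. At E13.5 the levels overlapped, with 16.6, 20.8 and 19.5 in BJ1 and 11.7, 15.7 and 17.3 in JB6. By edgeR 0 pairs passed at d12, d21, E13.5 and P0, where the background was 3.65%, 0.236%, 3.06% and 0.0185%, and DESeq2 called 1 pair in all, Cdkn1c in ESC.

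Relatives of these genes outside the domain were not called for parental bias by the same edgeR test, with 0 of 3 passing in ESC, 0 of 6 at d12, 0 of 6 at d21, 0 of 3 at E13.5 and 0 of 3 at P0, and 0 at an unadjusted p under 0.05. Of all genes tested, 0.49% to 1.78% passed by stage and 5.93% to 7.77% reached that unadjusted p. For so few genes 0 is near these shares, so it is no result about the relatives. Some relatives changed in level beside the imprinted genes. Cdkn1a, which encodes the related inhibitor p21, was higher at d12 than at E13.5 by 4.69 ± 0.25 on the log2 scale (adjusted p = 3.55e-14) and higher at d21 than at P0 by 4.63 ± 0.24 (adjusted p = 6.24e-15). Phlda3, a relative of Phlda2, was higher at d12 than at E13.5 by 5.72 ± 0.44 (adjusted p = 1.27e-11).

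By likeness of level over the 25 libraries, among 11158 genes, Cdkn1c was followed most closely by C430049B03Rik (Pearson r = 0.98), H19 (0.97) and Wls (0.97). H19, the maternally expressed noncoding RNA of the adjoining imprinted domain, ran from 5857 to 8397 CPM at d12 and 7262 to 10094 at d21, against 24.8 to 316 at E13.5 and 31.3 to 70.8 at P0. In ESC it ran from 14.5 to 720. For Kcnq1ot1 the nearest were 4933407H18Rik (0.94), Nab1 (0.93) and Spag9 (0.92), all of them highest in vivo. For Phlda2 they were Fam132b (0.97), Gm98 (0.95) and Eda2r (0.95), and for Slc22a18 Myl4 (0.96), Phldb3 (0.96) and Plac8 (0.96). The 25 points share stages and tissues, so these values describe the pattern across the 5 stages and carry no test.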

How the data were processed

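RNA was measured as stranded polyadenylated libraries of B6 and JF1 hybrids. The submitters' processing notes list CASAVA 1.8.2, edgeR, HTSeq, Novoalign and the mm9 build. The authors' deposited tables hold raw counts of sense read bases per gene and allele, not normalized, taken at strain differences with SAMtools mpileup 0.1.18, per the deposited readme. They started from 12508968 strain differences and removed positions where the Oct4-GFP B6 parent carried sequence of another strain (6252 in one passage, 37985 in another). The deposited files also give the number of strain differences covered per gene. A read over several strain differences adds several read bases, so intervals and floors cover counting error only. Depth and floors stand with the results.

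Genes were matched by symbol. Groups came from the labels. The 6 E14 libraries are not analysed here. Parental and strain bias were tested with edgeR 4.0.16 in R 4.3.3 (robust quasi-likelihood test, 1 column per allele, a term for each library, strain and parent) over autosomal genes that averaged 20 read bases or more in a library, adjusted by Benjamini-Hochberg, with a threshold of 0.05. Stage differences in bias came from a joint fit of the 5 stages, and expression from the summed alleles (TMM, stage and cross). Expression was tested for genes listed at both stages of a contrast that averaged 20 read bases or more over them. The SE beside an edgeR log2 value is the size of that value divided by the square root of its F statistic. It can understate the error where an allele or a stage had few read bases. Alternatives used DESeq2 1.42.0, limma 3.58.1 on log2 ratios with 0.5 added, other scalings, no filter, counts divided by 3, females only, a replicate block and each library left out. The scripts were tested on simulated data. Intervals and plots used Python 3.11.15, scipy 1.17.1 and matplotlib 3.10.9.

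The members, the gene lists and the rule for named genes (every member, each neighbour that passed a parental bias test, up to 3 relatives per contrast, and the 3 most alike genes by Pearson r of log2(CPM + 1)) were chosen with earlier results of these data known. The comparison of levels between crosses was added after seeing the data, as was the choice to give Krt7, Acta2, Nap1l4, Cars, Tssc4, Mrpl23, Tnfrsf22 and Kcnq1 by name. Some genes that this rule names are not reported here.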

Additional observations from a re-analysis of the deposited data

Results flagged for a closer look

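In groups of 4 to 10 libraries, single libraries far from the rest were looked for by Dixon's criterion, which chance meets in about 1 of 20 groups. In ESC the level of Cdkn1c was 50.7 CPM in JB6 replicate 2 against 5.99 to 11.7 in the other 3, and the level of Kcnq1ot1 in the same library was 10.8 against 0.516 to 1.45. The maternal share of Kcnq1ot1 in ESC JB6 replicate 1 was 33.3%, from 3 read bases. At d12 the level of Kcnq1ot1 was 8.15 CPM in BJ1 replicate 2 against 4.75 to 4.99 in the others. The maternal share of Phlda2 was 57.6% in ESC JB6 replicate 1 against 82.2% to 84.1%. The lowest maternal share of Cdkn1c at P0 was 95.4%, in JB6 replicate 1, the library in which the gene was covered at 1 strain difference and not 2. Between groups, the maternal bias of Cdkn1c differed between d12 and ESC by 2.55 on the log2 scale.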

How the results depend on the processing

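Parental bias passed for 13 pairs of gene and stage, with 12 in DESeq2, 10 in limma, 15 without the filter and 13 to 14 when 1 library was left out. The strain count of 1 became 0 in DESeq2 and with counts divided by 3, and 0 to 2 without 1 library. The count of stage differences in bias went from 1 to 0 in DESeq2, in limma and with counts divided by 3, and 0 to 2 without 1 library. The cross count was 0 to 2 and the expression count 10 to 12 without 1 library. Changes near 0 turned their sign. For Phlda2 from ESC to d12 the expression change was -0.01, but 0.075 with RLE scaling, 0.017 with TMM without mitochondrial genes, 0.071 in DESeq2, 0.12 without a filter, 0.031 with counts divided by 3, 0.10 with only the 2 stages fitted, and -0.16 to 0.34 without 1 library. For Cdkn1c from d12 to d21 it was 0.013 without a filter and -0.16 to 0.11 without 1 library, for Kcnq1ot1 -0.13 to 0.26 and for Slc22a18 -0.060 to 0.36. The bias difference ran from -0.12 to 0.98 for Phlda2 (d12 against ESC) and from -0.24 to 0.28 for Cdkn1c (d21 against d12) without 1 library. The cause was not tested. RLE scaling moved the median change of all genes from E13.5 to P0 by 0.17, and Cdkn1c less that median was -1.31 under both scalings. Libraries with the same number were not treated as paired. Over 96 pairs the correlation of their deviations had a median of 0.0031, with 16 over 0.1, and 8 of 25 libraries correlated best with their own number. Where both groups held 2 libraries, the deviations mirror each other and replicates 1 and 2 gave the same value, so these correlations cannot decide whether libraries were paired. With the replicate block the expression count was 10, and Kcnq1ot1 at d21 against P0 gave -0.98 (adjusted p = 0.0651). With mitochondrial genes left out of the depth, 5 of 38 levels moved by more than their SD: paternal Cdkn1c at d21 to 8.71 CPM, maternal Cdkn1c at P0 to 23.9, paternal Kcnq1ot1 at E13.5 to 20.7, maternal Phlda2 at d21 to 1.85 and maternal Slc22a18 at d21 to 9.57. Over all genes, the parental count was 126 in ESC (75 in DESeq2, 36 in limma), 184 at d12 (91, 58, and 117 with counts divided by 3) and 153 at d21 (99, 54). The strain count was 4010 in ESC (2297 in DESeq2, 2467 in limma), 3712 at d12 (1606, 1552), 3799 at d21 (1641, 1702), 4588 at E13.5 (2853 in DESeq2) and 5012 at P0 (3309 in DESeq2). The cross count was 173 in ESC (332 in DESeq2), 391 at d12 (785), 27 at d21 (52), 318 at E13.5 (536, and 146 in females only) and 2 at P0 (48, and 0 in females only). Without 1 library it ran from 55 to 2187 in ESC, 21 to 746 at d12, 5 to 104 at d21, 46 to 304 at E13.5 and 0 to 5 at P0, and the parental count from 80 (without BJ1 replicate 2) to 199 (without JB6 replicate 1) in ESC and from 112 (without JB6 replicate 2) to 160 at d12. Stage differences in bias from ESC to d12 numbered 29 (12 with counts divided by 3, 18 with only the 2 stages fitted), from d12 to d21 5 (2 with counts divided by 3) and from E13.5 to P0 13 (6 in limma, 8 with counts divided by 3), and without 1 library 18 to 40, 2 to 5 and 8 to 14. Depth limited Ascl2, Phlda2 and Slc22a18, each with 0 read bases in some in vivo libraries, and Kcnq1ot1, with as few as 3 in a library.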
